A study of Schizosaccharomyces pombe with 8 samples.

Results

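Genes that differed from wild type in opposite directions in fission yeast strains labelled as disrupted in the catalytic subunit and in the regulatory subunit of cAMP-dependent protein kinase (PKA) are described here, together with their level in a further disruptant that took no part in choosing them. A gene was taken where its mean log2 intensity on the arrays labelled Δpka1 differed from that of the wild type array of the same slide by at least 0.5, and its mean in Δcgs1 differed by at least 0.15 with the opposite sign. Both differences had to keep their sign on both slides. The rule was met by 101 genes, of which cgs1 and mei2 were left out by name, as pka1 and the marker ura4 would have been. That left 99 of 4940 genes (2%), called graded genes. Relative to wild type, 34 of them were higher on the arrays labelled Δpka1 and lower in Δcgs1, and 65 were lower on the arrays labelled Δpka1 and higher in Δcgs1. They are called the 34 higher genes and the 65 lower genes below, after their direction on the arrays labelled Δpka1. Since both differences chose the genes, their values are a description, and no test is given for them.

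PKA of fission yeast consists of the catalytic subunit Pka1 and the regulatory subunit Cgs1. In medium rich in glucose, cAMP made by adenylate cyclase binds Cgs1 and frees Pka1, and active Pka1 restrains the genes of gluconeogenesis, of the use of other carbon sources and of sexual differentiation. When glucose or nitrogen runs out, PKA activity drops and these genes are switched on. Loss of cgs1 therefore leaves the kinase active without a signal, and loss of pka1 leaves none, so the pair of strains forms the opposite ends of the pathway.

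Transcripts were measured on 8 single-colour arrays, 2 for each of 4 strains of mating type h+, each array from a separate culture. YMP37 is Δpka1, with pka1::ura4, YMP41 is Δcgs1, with cgs1::ura4, and OG1 is Δppt1, with ppt1::kanMX6. The wild type is PR110, and all 4 strains carry leu1-32 and ura4-D18, a deletion of ura4. Cultures of 50 mL in YES, a rich medium, were grown at 30 °C and cells were taken at 8 h, in logarithmic growth. The labels name 1 strain per genotype and give no second isolate. By its signal, the disrupted ppt1 is SPAC56F8.04c, which encodes the prenyltransferase of coenzyme Q synthesis, so Δppt1 is a strain disrupted in that pathway, with pka1 and cgs1 undisrupted per its label.

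The disrupted genes were read in every array. Signal for cgs1 was 46361 and 54252 on the arrays labelled Δpka1, 1404 and 1360.4 in Δcgs1, 21968 and 28540.2 in Δppt1, with 20232 and 28238 in wild type. Signal for ppt1 was 29176 and 35838 on the arrays labelled Δpka1, 32563 and 40353 in Δcgs1, 2497 and 1910.0 in Δppt1, with 32691 and 41517 in wild type. Both read as absent in their own disruptant alone. Signal for pka1 was 38387 and 46832 on the arrays labelled Δpka1, 28563 and 34673 in Δcgs1, 28349.7 and 30386 in Δppt1, with 28743 and 34715 in wild type. It did not show its disruption, so the loss of pka1 on these arrays rests on their label. On slide 2 the position given in the titles of the 3 disruptant arrays differs from that in the names of their tables, and the labels were used. The marker ura4 read 32716 and 37383 on the arrays labelled Δpka1, 39913 and 44787 in Δcgs1, 1307 and 1000.4 in Δppt1, with 1362 and 1627 in wild type, present in both strains that carry it as a marker. Both arrays labelled Δpka1 thus read ura4, cgs1 and ppt1 as present, a pattern that the labels give for YMP37 alone. On slide 2 the signals of these 3 genes matched the labels of all arrays. Presence of ura4 and loss of PKA subunits therefore cannot be told apart in either strain against wild type. The control of random sequence gave 821 to 1268. The highest signal of a deleted gene, 2497, was taken as a limit under which a signal cannot be told from background, a choice made after the data were seen.

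The span of the rule was wide on the arrays labelled Δpka1 and narrow in Δcgs1. Over the 34 higher genes the log2 difference from wild type was 0.51 to 3.60 on the arrays labelled Δpka1, with a median of 1.08, and -0.91 to -0.16 in Δcgs1, with a median of -0.27. Over the 65 lower genes it was -2.20 to -0.50 on the arrays labelled Δpka1, with a median of -0.76, and 0.15 to 2.27 in Δcgs1, with a median of 0.27. These values are as read, and for signals under that limit only a bound is measured. This holds on the arrays labelled Δpka1 for 2 higher genes, among them ght3 at 3.60, which was at least 8.19-fold higher, and for 12 lower genes. In Δcgs1 it also holds for SPBC23G7.10c at -0.91, which was at least 1.58-fold lower, for map1, and for 4 lower genes under the limit in wild type. For 2 higher genes, ght3 and SPAC26F1.11, both Δcgs1 and wild type lay under it, so their direction in Δcgs1 was not measured. A difference of at least 1 in size on the arrays labelled Δpka1 was seen for 19 of the higher genes and 21 of the lower genes, and one of at least 2 for 6 and 2 genes. In Δcgs1 only 2 of the higher genes and 8 of the lower genes reached 0.5 in size, and 21 and 40 genes stayed below 0.3. The median gene had a difference in Δcgs1 of 24.7% of the size of its difference on the arrays labelled Δpka1 among the higher genes, and 31.8% among the lower genes. The Δcgs1 difference was the larger of the pair in 3 genes, all of them lower genes, and for SPBPB2B2.18 and SPCC4F11.05 of these the size on the arrays labelled Δpka1 is only a bound.

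**Figure D1:**
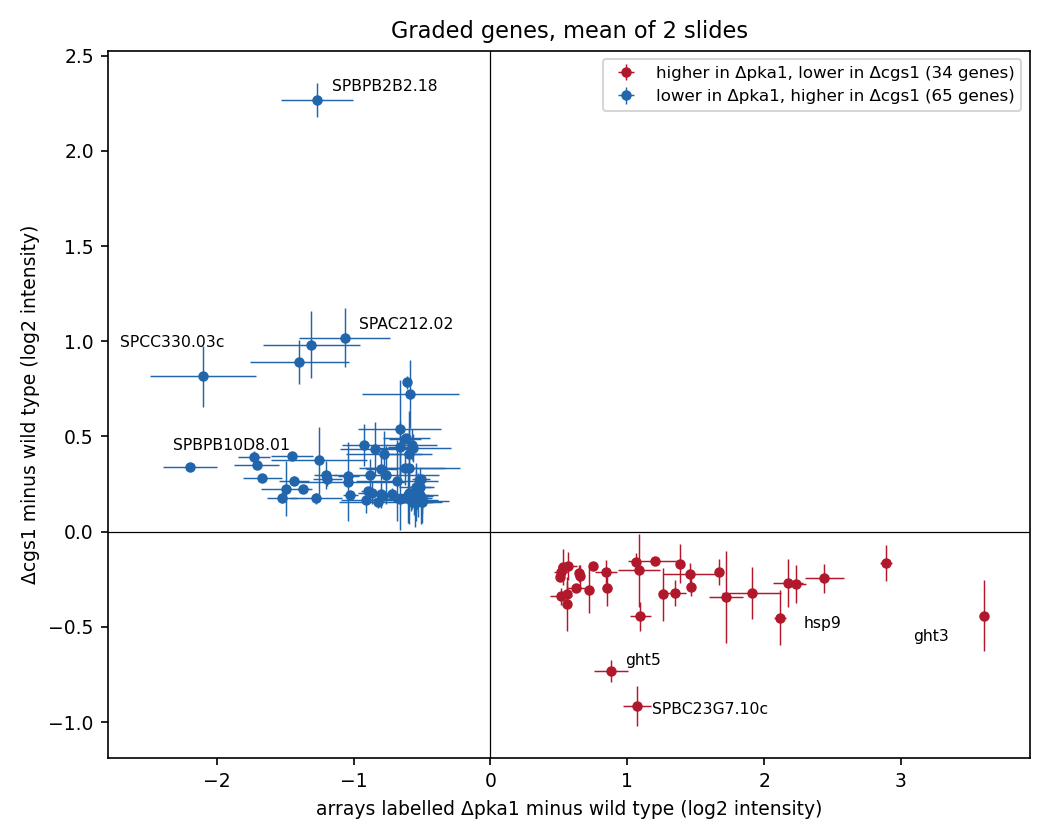
Mean log2 difference from the wild type array of the same slide for each of the 99 genes, on the arrays labelled Δpka1 on the x axis and in Δcgs1 on the y axis. Points are means of 2 slides and bars join the values of the 2 slides. Values are as read, also where a signal lay under the background limit of 2497. The 34 higher genes spread up to 3.60 (ght3, at least 8.19-fold by that limit) along the x axis and stay between -0.91 and -0.16 on the y axis, and SPBPB2B2.18 stands alone at 2.27 on the y axis.

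As a background for these counts, 5.47% of all genes met the condition on the arrays labelled Δpka1 in the higher direction and 7.17% in the lower direction. The condition on Δcgs1 was met by 3.87% of all genes in the lower direction and by 12.3% in the higher direction. Both arrays labelled Δpka1 lay above both wild type arrays for all 34 higher genes, beside 14.9% of all genes. Both lay below them for 64 of the 65 lower genes, beside 26.2% of all genes, and SPAC750.08c was the exception. In Δcgs1, both arrays lay below both wild type arrays for 29 of the 34 higher genes, beside 4.53% of all genes, and above them for 40 of the 65 lower genes, beside 8.02% of all genes. The arrays of 5 higher and 25 lower genes thus overlapped between Δcgs1 and wild type. The wild type arrays are shared by both comparisons. The rule chose the genes on these same values, so these shares follow largely from it and lend it no support.

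The sizes differed between the slides, while the rule fixed the signs. For the 65 lower genes the median difference on the arrays labelled Δpka1 was -0.58 on slide 1 and -0.94 on slide 2, and in 61 of them the slide 1 value was the higher one, which held for 3274 of all 4940 genes. In Δcgs1 their median was 0.33 on slide 1 and 0.23 on slide 2, with the slide 1 value the higher one in 50 genes, which held for 3704 of all 4940 genes. Each slide has 1 wild type array, which both differences share. For the 34 higher genes the median on the arrays labelled Δpka1 was 1.04 on slide 1 and 1.02 on slide 2, and in Δcgs1 -0.19 and -0.33. A difference in Δcgs1 of at least 0.15 in size on each slide, and not only in the mean, was seen for 23 of the higher genes and 38 of the lower genes. Between the slides, the median gap in the Δcgs1 difference was 0.147 for the graded genes, close to that threshold, beside 0.087 for all genes.

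The gene with the largest difference on the arrays labelled Δpka1 came from carbon metabolism. The list of glucose-repressed carbon metabolism has 20 genes, all measured. Of these, 4 were higher genes (ght3, dak2, gut2 and ght5) and 1 a lower gene (adh4). The whole list had a median of 1.01 on the arrays labelled Δpka1 and 0.06 in Δcgs1, so these 4 do not stand for it in Δcgs1. Its genes agl1, ght4, gal10 and fbp1 were higher on the arrays labelled Δpka1. On average they were higher in Δcgs1 too (0.44, 0.21, 0.18 and 0.15). For mel1 and gal1, also higher on the arrays labelled Δpka1, the Δcgs1 difference was -0.08 each. Among all 99 genes, ght3 (SPAC1F8.01), a member of the hexose transporter family known for gluconate uptake, had the largest difference on the arrays labelled Δpka1. It read 19668 and 21272 on the arrays labelled Δpka1, 1386 and 1108 in Δcgs1, 3403 and 2627 in Δppt1, with 1654 and 1712 in wild type. Both Δcgs1 arrays lay below both wild type arrays, but both strains lay under the background limit, so for ght3 only the arrays labelled Δpka1, at least 8.19-fold above wild type, and Δppt1, at least 1.2-fold above it, carry a measured direction. The gene ght5 (SPCC1235.14) encodes the high-affinity glucose transporter. It read 63726 and 62116 on the arrays labelled Δpka1, 18374 and 23044 in Δcgs1, 26946 and 33484 in Δppt1, with 31754 and 36776 in wild type. Its difference was 0.88 on the arrays labelled Δpka1, which came within 10% of the highest reading, 65239, so that this value is compressed. In Δcgs1 it was -0.73, and Δppt1 overlapped wild type.

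Genes of glucose and glycerol oxidation were also among the higher genes. Signal for gcd1 (SPCC794.01c), which encodes glucose dehydrogenase, was 56839 and 60269.7 on the arrays labelled Δpka1, 7109 and 7002 in Δcgs1, 6786 and 5914 in Δppt1, with 7452 and 8374 in wild type. It was 7.41-fold higher on the arrays labelled Δpka1 than in wild type, with a difference in Δcgs1 of only -0.16. Signal for dak2 (SPAC977.16c), a dihydroxyacetone kinase, was 55796 and 56422 on the arrays labelled Δpka1, 11243 and 12694 in Δcgs1, 9787 and 13457 in Δppt1, with 12789.8 and 17417 in wild type. The Δppt1 arrays of dak2 overlapped those of wild type, while both Δcgs1 arrays lay below them. The mitochondrial glycerol-3-phosphate dehydrogenase gene gut2 (SPCC1223.03c) had differences of 0.62 on the arrays labelled Δpka1, -0.30 in Δcgs1, with -0.57 in Δppt1. The alcohol dehydrogenase gene adh4 (SPAC5H10.06c) went the other way. It read 11614 and 11626 on the arrays labelled Δpka1, 34465 and 41518 in Δcgs1, 22239 and 29506 in Δppt1, with 29089.6 and 33948 in wild type. Both arrays labelled Δpka1 lay 2.7-fold below wild type on average, and below all other arrays of the gene.

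The graded genes of mating were all higher genes. Of 24 measured genes of the list of mating and pheromone response, 3 were higher genes and 0 lower genes, beside mei2, the RNA-binding switch of meiosis, which met the rule but was left out (differences of 2.65 on the arrays labelled Δpka1, -1.26 in Δcgs1, with -0.95 in Δppt1). Signal for map1 (SPAC11E3.06), the MADS-box regulator of genes specific to P cells (the h+ mating type), was 9454 and 10803 on the arrays labelled Δpka1, 2453 and 2388 in Δcgs1, 2416 and 2323 in Δppt1, with 2629 and 3578 in wild type. It was 3.3-fold higher on the arrays labelled Δpka1, and both Δcgs1 and both Δppt1 arrays lay under the background limit, at least 1.23-fold below wild type. The pheromone pathway genes rgs1 (SPAC22F3.12c), a regulator of G protein signalling, and ste4 (SPAC1565.04c), an adaptor of the MAP kinase cascade, were graded alike. For rgs1 the differences were 1.35 on the arrays labelled Δpka1, -0.32 in Δcgs1, with -0.45 in Δppt1. For ste4 they were 1.26, -0.33 and -0.40 in the same order of strains. The whole list had a median of 0.61 on the arrays labelled Δpka1 and 0.02 in Δcgs1, so the 3 graded genes do not stand for it. Its genes ste11, fus1 and mam3 were higher on the arrays labelled Δpka1 (1.30, 1.02 and 0.61). On average they were higher in Δcgs1 too (0.23, 0.16 and 0.20).

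All strains are labelled h+, and markers of both cell types were read beside these genes. The 3 measured P-cell markers, map1 among them, summed to 50779 and 59966 on the arrays labelled Δpka1, to between 18578 and 21409 in Δcgs1, to between 17192 and 18181 in Δppt1, and to between 17816 and 21622 in wild type. The 5 measured M-cell markers summed to between 29914 and 32629 on the arrays labelled Δpka1, 33520 and 39872 in Δcgs1, 29804 and 34545 in Δppt1, with 29192 and 37312 in wild type, and none of them was among the 99 genes. In every strain 1 of the 5 lay under the background limit, and the part of M cells in the result was not tested.

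Genes of the stress response gave the higher genes hsp9 and ctt1, out of 24 measured. Signal for hsp9 (SPAP8A3.04c), a small heat shock protein, was 50649 and 54035 on the arrays labelled Δpka1, 7522 and 8793 in Δcgs1, 21937 and 28592 in Δppt1, with 8456 and 10974 in wild type. It was 5.43-fold higher on the arrays labelled Δpka1, and its Δcgs1 arrays overlapped those of wild type. The catalase gene ctt1 (SPCC757.07c) had differences of 0.84 on the arrays labelled Δpka1, -0.21 in Δcgs1, with -0.20 in Δppt1, and its arrays labelled Δpka1 lay near the highest value of the arrays. A predicted trehalose-phosphate synthase gene, SPAC22F8.05, outside the lists, read 52804 and 59463 on the arrays labelled Δpka1, 9454 and 10262 in Δcgs1, 12839 and 18559 in Δppt1, with 10668 and 13289 in wild type. It was 4.71-fold higher on the arrays labelled Δpka1 and both its Δcgs1 arrays lay below wild type.

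The remaining large differences among the higher genes lay outside the lists. SPAC4H3.08 read 62699 and 60690.0 on the arrays labelled Δpka1, 11620.1 and 10988 in Δcgs1, 13252 and 14095 in Δppt1, with 12853 and 14472 in wild type. SPAC26F1.11 read 8346 and 10869.7 on the arrays labelled Δpka1, 1601 and 1609.6 in Δcgs1, 3426 and 2723 in Δppt1, with 1982 and 2431 in wild type, and both Δcgs1 and wild type were under the background limit, so the measured directions are those of the arrays labelled Δpka1, at least 3.81-fold above wild type, and of Δppt1, at least 1.22-fold above it. SPAC11D3.18c read 39284 and 47918 on the arrays labelled Δpka1, 11319 and 12245 in Δcgs1, 10832 and 14297 in Δppt1, with 12479 and 14859.7 in wild type. In both of the genes above background, the Δppt1 arrays overlapped those of wild type and both Δcgs1 arrays lay below them. Signal for pof15 (SPAPB1A10.14), which encodes an F-box protein of a ubiquitin ligase, was 50986 and 53225 on the arrays labelled Δpka1, 15862 and 15043 in Δcgs1, 16454 and 17286 in Δppt1, with 18723 and 18999.8 in wild type. It was 2.76-fold higher on the arrays labelled Δpka1, with -0.29 in Δcgs1.

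The largest difference in Δcgs1 among the higher genes was that of SPBC23G7.10c, a predicted NADH-dependent flavin oxidoreductase gene. It read 7777 and 8859 on the arrays labelled Δpka1, 1962 and 2229 in Δcgs1, 12429 and 15048 in Δppt1, with 3441 and 4517 in wild type. It was 2.11-fold higher on the arrays labelled Δpka1 and at least 1.58-fold lower in Δcgs1 than in wild type, where the Δcgs1 arrays lay under the background limit. Arrays of 7 higher genes came within 10% of that highest reading in both arrays labelled Δpka1 (SPAC4H3.08, SPACUNK4.17, SPBC11C11.06c, SPAC27D7.11c, ght5, ctt1 and gut2), so their differences are compressed.

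**Figure D2:**
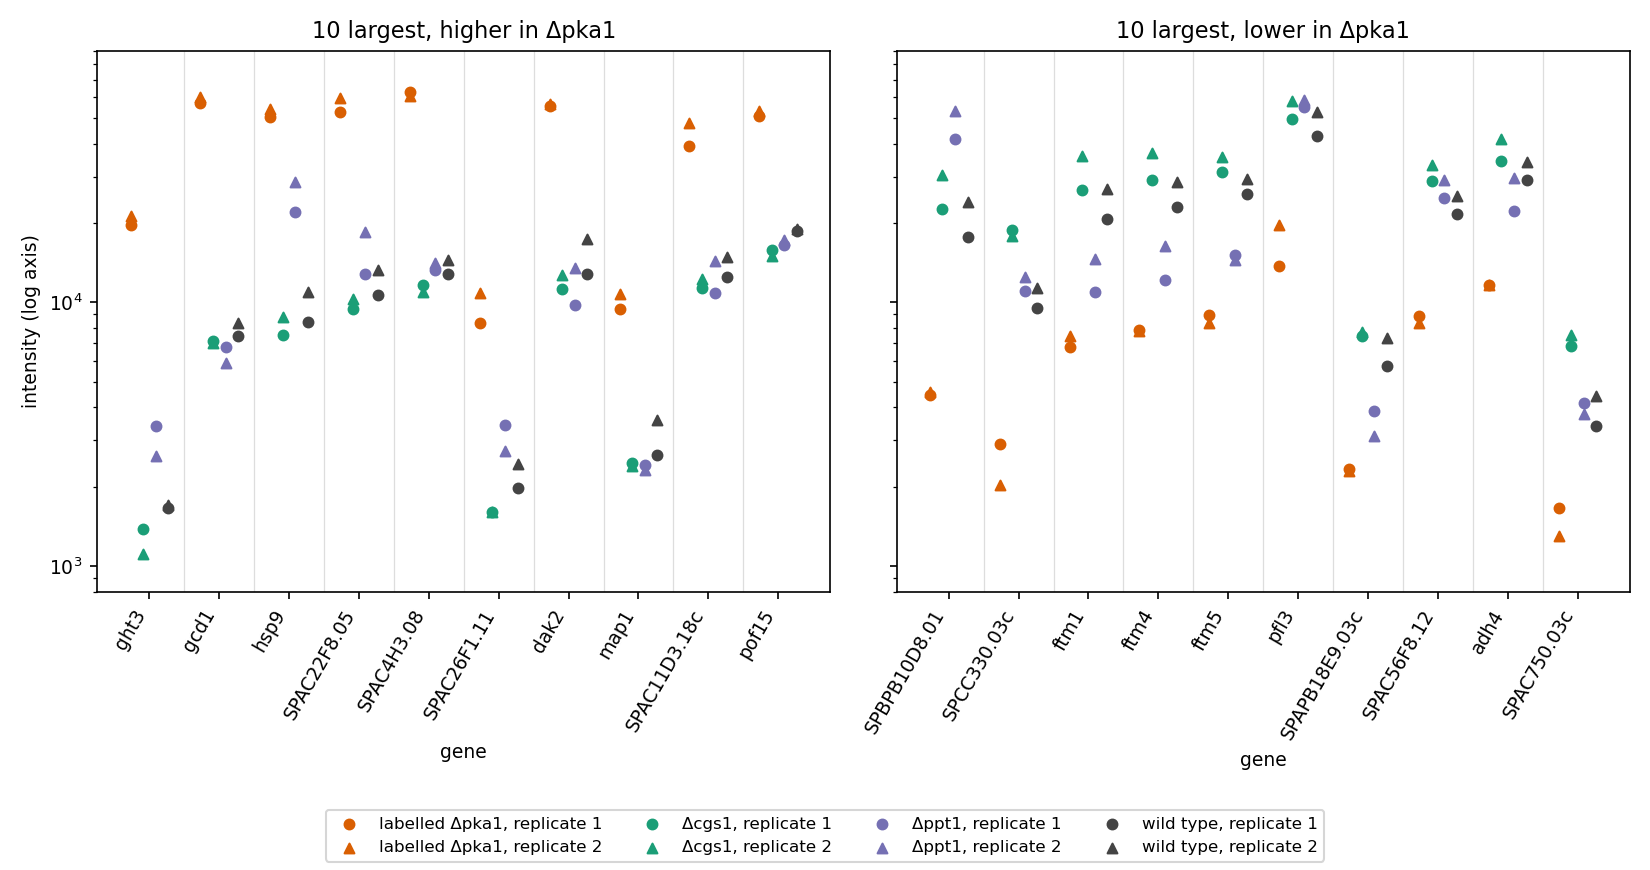
Intensity on a log axis in each of the 8 arrays, for the 10 higher genes (left) and the 10 lower genes (right) with the largest difference on the arrays labelled Δpka1. Circles are replicate 1 and triangles replicate 2, with the disruptants left of wild type within each gene. For hsp9 both Δppt1 arrays, at 21937 and 28592, stand above wild type, and for SPBPB10D8.01 both, at 41499 and 52961, stand above all other arrays.

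The other higher genes outside the lists had differences between 0.51 and 1.46 on the arrays labelled Δpka1 and between -0.44 and -0.16 in Δcgs1. They include ubp11 (SPBC19C2.04c), a ubiquitin protease gene, pyp3 (SPAC11E3.09), a tyrosine phosphatase gene, exg3 (SPBC2D10.05), a glucanase gene, and grx1 (SPAC4F10.20), a glutaredoxin gene. The remaining names are SPACUNK4.17, SPBC3D6.16, SPCC417.15, SPBC11C11.06c, SPBP4H10.12, SPAC1782.12c, aim18 (SPAC18G6.01c), SPAC26F1.07, hhy1 (SPAC1F8.04c), SPCC569.03, SPAC27D7.11c, opi10 (SPBC21H7.06c) and odr1 (SPBC215.10). Their Δcgs1 arrays lay below those of wild type in all but SPACUNK4.17, SPBP4H10.12, aim18 and SPAC26F1.07, which overlapped.

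The largest differences among the lower genes were those of SPBPB10D8.01 and SPCC330.03c. SPBPB10D8.01 read 4437 and 4587 on the arrays labelled Δpka1, 22553 and 30475 in Δcgs1, 41499 and 52961 in Δppt1, with 17751 and 24123 in wild type. It was 4.59-fold lower on the arrays labelled Δpka1 than in wild type, with 0.34 in Δcgs1. Signal for pfl3 (SPBC947.04), a flocculin, that is, a cell surface protein of cell adhesion, was 13799 and 19712 on the arrays labelled Δpka1, 49586 and 58259.9 in Δcgs1, 55189 and 58480.1 in Δppt1, with 42871 and 52561 in wild type. It was the only one of the 17 measured genes of the list of flocculins and their regulators among the 99. Its Δcgs1 arrays overlapped those of wild type, whereas the arrays labelled Δpka1 stood 2.88-fold below. The ammonium transporter gene amt3 (SPAC2E1P3.02c), the only one of 18 measured genes of the list of nitrogen starvation and amino acid uptake, had differences of -0.55 on the arrays labelled Δpka1, 0.16 in Δcgs1, with -0.33 in Δppt1.

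The genes ftm1, ftm4 and ftm5 had like differences from wild type in every strain. Signal for ftm1 (SPAC977.01) was 6795 and 7472 on the arrays labelled Δpka1, 26643 and 36001 in Δcgs1, 10938 and 14631 in Δppt1, with 20788 and 26798 in wild type. Signal for ftm4 (SPAC750.05c) was 7882 and 7813 on the arrays labelled Δpka1, 29025 and 36961 in Δcgs1, 12211 and 16404 in Δppt1, with 22979.7 and 28681 in wild type. Signal for ftm5 (SPBC1348.02) was 8949.8 and 8345 on the arrays labelled Δpka1, 31311 and 35542 in Δcgs1, 15071 and 14484 in Δppt1, with 25698 and 29285 in wild type. All 3 were 3.17- to 3.31-fold lower on the arrays labelled Δpka1 than in wild type, and all 3 were lower in Δppt1 on both slides. Whether their probes tell these genes apart was not tested, so they may count as fewer than 3 separate observations. The same holds for SPAC750.03c and SPAC977.03. SPAC750.03c read 1665 and 1299.6 on the arrays labelled Δpka1, 6859 and 7529 in Δcgs1, 4167 and 3789.8 in Δppt1, with 3412 and 4401 in wild type. SPAC977.03 read 1609 and 1222 on the arrays labelled Δpka1, 6959 and 6759 in Δcgs1, 3781 and 4018 in Δppt1, with 3122 and 3862 in wild type. Both lay under the background limit on the arrays labelled Δpka1, at least 1.55-fold and 1.39-fold below wild type, and both stood 1.85-fold and 1.98-fold above it in Δcgs1.

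Differences of at least 0.5 in Δcgs1 were seen in 8 of the lower genes, and that of SPBPB2B2.18 stood apart. It read 1779 and 1539 on the arrays labelled Δpka1, 18303 and 20103 in Δcgs1, 1984 and 1327 in Δppt1, with 3573 and 4438 in wild type. It was 4.82-fold higher in Δcgs1 than in wild type and at least 1.59-fold lower on the arrays labelled Δpka1, where it lay under the background limit. SPAC212.02 read 2608 and 2089 on the arrays labelled Δpka1, 9775 and 10033 in Δcgs1, 3542 and 3432 in Δppt1, with 4334 and 5507 in wild type. SPCC330.03c read 2903 and 2027 on the arrays labelled Δpka1, 18796 and 17872 in Δcgs1, 11029 and 12505 in Δppt1, with 9544 and 11356 in wild type. Both were above the Δppt1 and wild type arrays in both Δcgs1 arrays, 2.03-fold and 1.76-fold over wild type. SPCC330.03c lies 2 measured genes from ura4 in the RefSeq gene order, with mug135 between them, and all 4 strains carry the ura4-D18 deletion there.

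Smaller differences of this kind were seen in 3 more genes. SPCC584.16c read 13796 and 13695 on the arrays labelled Δpka1, 34841 and 37502 in Δcgs1, 16607 and 18345 in Δppt1, with 20688 and 21295 in wild type. SPCC4F11.05 read 2005 and 1418 on the arrays labelled Δpka1, 4404 and 3964 in Δcgs1, 3144 and 2896 in Δppt1, with 2355 and 2719 in wild type. SPAC1786.04 read 2049 and 1837 on the arrays labelled Δpka1, 4560.0 and 4383 in Δcgs1, 2184 and 1930.0 in Δppt1, with 2628 and 3588 in wild type. In SPCC584.16c and SPCC4F11.05 the difference in Δcgs1, 0.78 and 0.72, was read as larger in size than that on the arrays labelled Δpka1, -0.61 and -0.59. SPCC4F11.05 and SPAC1786.04 lay under the background limit on the arrays labelled Δpka1, at least 1.01-fold and 1.23-fold below wild type.

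The last of the 10 largest lower genes were SPAPB18E9.03c and SPAC56F8.12. SPAPB18E9.03c read 2326 and 2294 on the arrays labelled Δpka1, 7452 and 7747 in Δcgs1, 3878 and 3123 in Δppt1, with 5759 and 7329 in wild type. It lay under the background limit on the arrays labelled Δpka1, at least 2.6-fold below wild type. SPAC56F8.12 read 8842 and 8340.3 on the arrays labelled Δpka1, 28770.0 and 33329.8 in Δcgs1, 24887 and 29164 in Δppt1, with 21703 and 25392 in wild type. Both its Δcgs1 arrays lay above both wild type arrays, as in adh4. In all, 12 of the lower genes lay under the background limit on both arrays labelled Δpka1, and 4 of these lay under it in wild type too (meu10, SPAC186.07c, SPAC750.02c and SPCC16C4.21), so that their lower level there was not measured.

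Other lower genes can be grouped by what their products are known for, a grouping made after their values were seen. Of genes for pyrimidine and purine salvage, urg2 (SPAC1002.17c), a uracil phosphoribosyltransferase, had -1.37 on the arrays labelled Δpka1 and 0.22 in Δcgs1. Its neighbour urg3 (SPAC1002.18), induced by uracil like urg2, had -0.90 and 0.22. The uridine kinase gene urk1 (SPCC162.11c) had -0.60 and 0.20, the uridine ribohydrolase gene urh1 (SPBC1683.06c) -0.62 and 0.49, and the guanine deaminase gene gud1 (SPCC1672.03c) -1.03 and 0.19. The shared directions of these 5 genes follow from the rule, and no list of salvage genes was read as a whole. In Δppt1 the 5 genes had differences between -0.17 and 0.35. The strains labelled Δpka1 and Δcgs1 both carry ura4, an enzyme gene of uracil synthesis, while Δppt1 and wild type lack it. The part of ura4 in these values was not tested.

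Factors of ribosome assembly and tRNA modification, also grouped after their values were seen, had small differences in Δcgs1. Of the assembly factors, las1 (SPBC16C6.12c), which cuts the ribosomal precursor RNA, had -0.79 on the arrays labelled Δpka1 and 0.19 in Δcgs1. The values were -0.58 and 0.16 for the kinase gene rio1 (SPAC10F6.10), -0.56 and 0.17 for nop8 (SPBP16F5.06), -0.54 and 0.15 for noc4 (SPBC1604.06c), and -0.54 and 0.18 for the helicase gene dbp9 (SPCC1494.06c). For tRNA modification, ctu2 (SPBC19C2.13c), of uridine thiolation, had -0.91 and 0.17, dus4 (SPCC777.15), a dihydrouridine synthase, -0.51 and 0.16, and tyw3 (SPAC25B8.15c), of wybutosine synthesis, -0.51 and 0.24. None of the 38 measured genes of the list of ribosome biogenesis, which holds none of these factors, was among the 99 genes. That list had a median of -0.33 on the arrays labelled Δpka1 and 0.02 in Δcgs1.

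These factors lay near the thresholds of the rule and depended on the scaling of the arrays. Their differences kept their sign under 3 other scalings (array medians matched, quantile normalization and cyclic loess), but each of the 8 missed the rule under at least 1 of them. The gene nearest the threshold in Δcgs1 from inside was noc4, with 0.15, next to SPCC663.08c, with 0.15, and the nearest from outside were ddx27 and gpi12, with 0.14 and -0.14. At the threshold on the arrays labelled Δpka1, ast1 (SPCC962.05) and spa1 (SPBC577.14c) lay inside, and gor2 and bud22 outside, all with -0.50.

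The balance of the directions changed with the scaling. All 99 genes kept the sign of both differences under the 3 other scalings, and all 34 higher genes met the rule under each of them. Of the 65 lower genes, 49 met it with array medians matched, 38 after quantile normalization and 38 after cyclic loess, and 35 under all 3. Genes that met the rule in the higher direction made up 34.3% as reported, 44.3% with array medians matched, 58.7% after quantile normalization and 56.8% after cyclic loess, so more genes were lower than higher on the arrays labelled Δpka1 as reported and with matched medians but not under the other scalings. Taken alone, slide 1 gave 28 higher and 58 lower genes, and slide 2 gave 64 higher and 53 lower genes. Under all 3 scalings and on each slide alone, 20 of the higher genes and 27 of the lower genes met the rule, among them ght3, ght5, hsp9, rgs1, ste4 and SPBC23G7.10c of the higher genes and adh4, urg2, SPBPB10D8.01, SPBPB2B2.18 and SPCC330.03c of the lower genes. For ght3 the direction in Δcgs1 was not measured, since Δcgs1 and wild type lay under the background limit. It missed the rule when signals were raised to that limit.

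**Figure D3:**
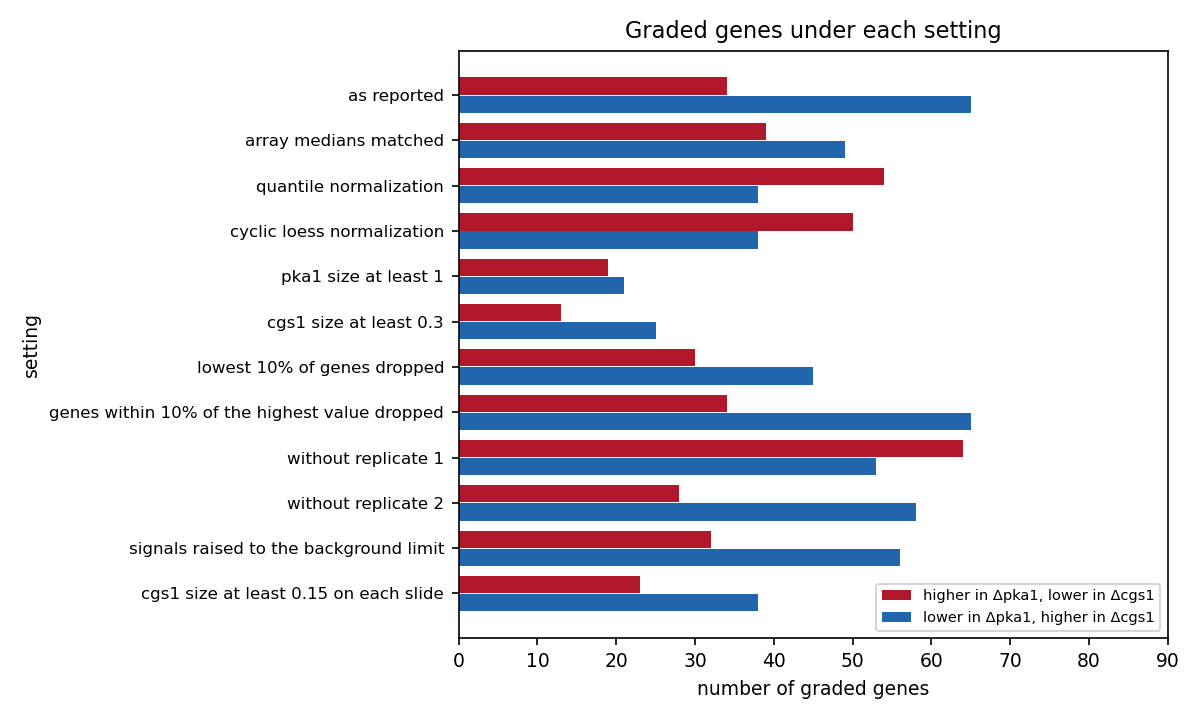
Number of genes that met the rule on the x axis under each setting on the y axis, with 1 bar for each direction. Under most settings the lower genes are the more numerous, but quantile normalization (54 higher, 38 lower), cyclic loess (50 higher, 38 lower) and slide 2 alone, labelled without replicate 1 (64 higher, 53 lower), turn the balance.

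The other lower genes had differences between -1.28 and -0.50 on the arrays labelled Δpka1 and between 0.16 and 0.49 in Δcgs1. Transport and metabolism are represented by pdc102 (SPAC186.09), a predicted pyruvate decarboxylase gene, mfs2 (SPAC11D3.05), a transporter gene of the major facilitator family, ser2 (SPBC3H7.07c), of serine synthesis, fah1 (SPBPB8B6.03), and the mitochondrial carrier genes odc1 (SPAC328.09) and ggc1 (SPCC1682.09c), named for carriers of Saccharomyces cerevisiae. Chromatin and chromosome segregation are represented by cnp3 (SPBC1861.01c), which encodes the kinetochore protein CENP-C, chp1 (SPAC18G6.02c), of heterochromatin silencing by RNA interference, and swc2 (SPBP35G2.13c), of the Swr1 remodelling complex. Also among them are grt1 (SPBPB8B6.04c), a transcription factor gene, ubc7 (SPBP16F5.04), a ubiquitin-conjugating enzyme gene, alp31 (SPAC8E11.07c), a tubulin-folding cofactor gene, and grx5 (SPAPB2B4.02), a mitochondrial glutaredoxin gene. The remaining names are SPAC513.07, SPBC16H5.14c, hgh1 (SPAC26F1.12c), dhm2 (SPAC17C9.15c), set13 (SPAC688.14), SPAC11D3.17, meu10 (SPCC1223.12c), SPAC186.07c, SPCC16C4.21, SPAC750.08c, SPCC191.03c, SPAC56F8.13, SPAC750.02c, SPBC3H7.05c, SPAC5H10.10 and SPBC8E4.03.

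The other lists held few graded genes. Of 91 measured mug genes, named for a rise in meiosis, 2 were lower genes. These were mug115 (SPAC56F8.14c), with -0.92 on the arrays labelled Δpka1 and 0.46 in Δcgs1, and mug37 (SPBC31F10.05), with -0.58 and 0.46. The list of iron and haem uptake gave 1 higher gene of 15, fio1. No gene met the rule among 19 of PKA and glucose sensing, with cgs1 itself left out, 17 of glycolysis and fermentation, 7 of phosphate starvation, 14 of sulfur assimilation, 27 of the respiratory chain, 24 of meiosis and spore formation or 22 of the cell cycle and septation. These counts stand beside the 2% of all genes that met the rule.

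**Figure D4:**
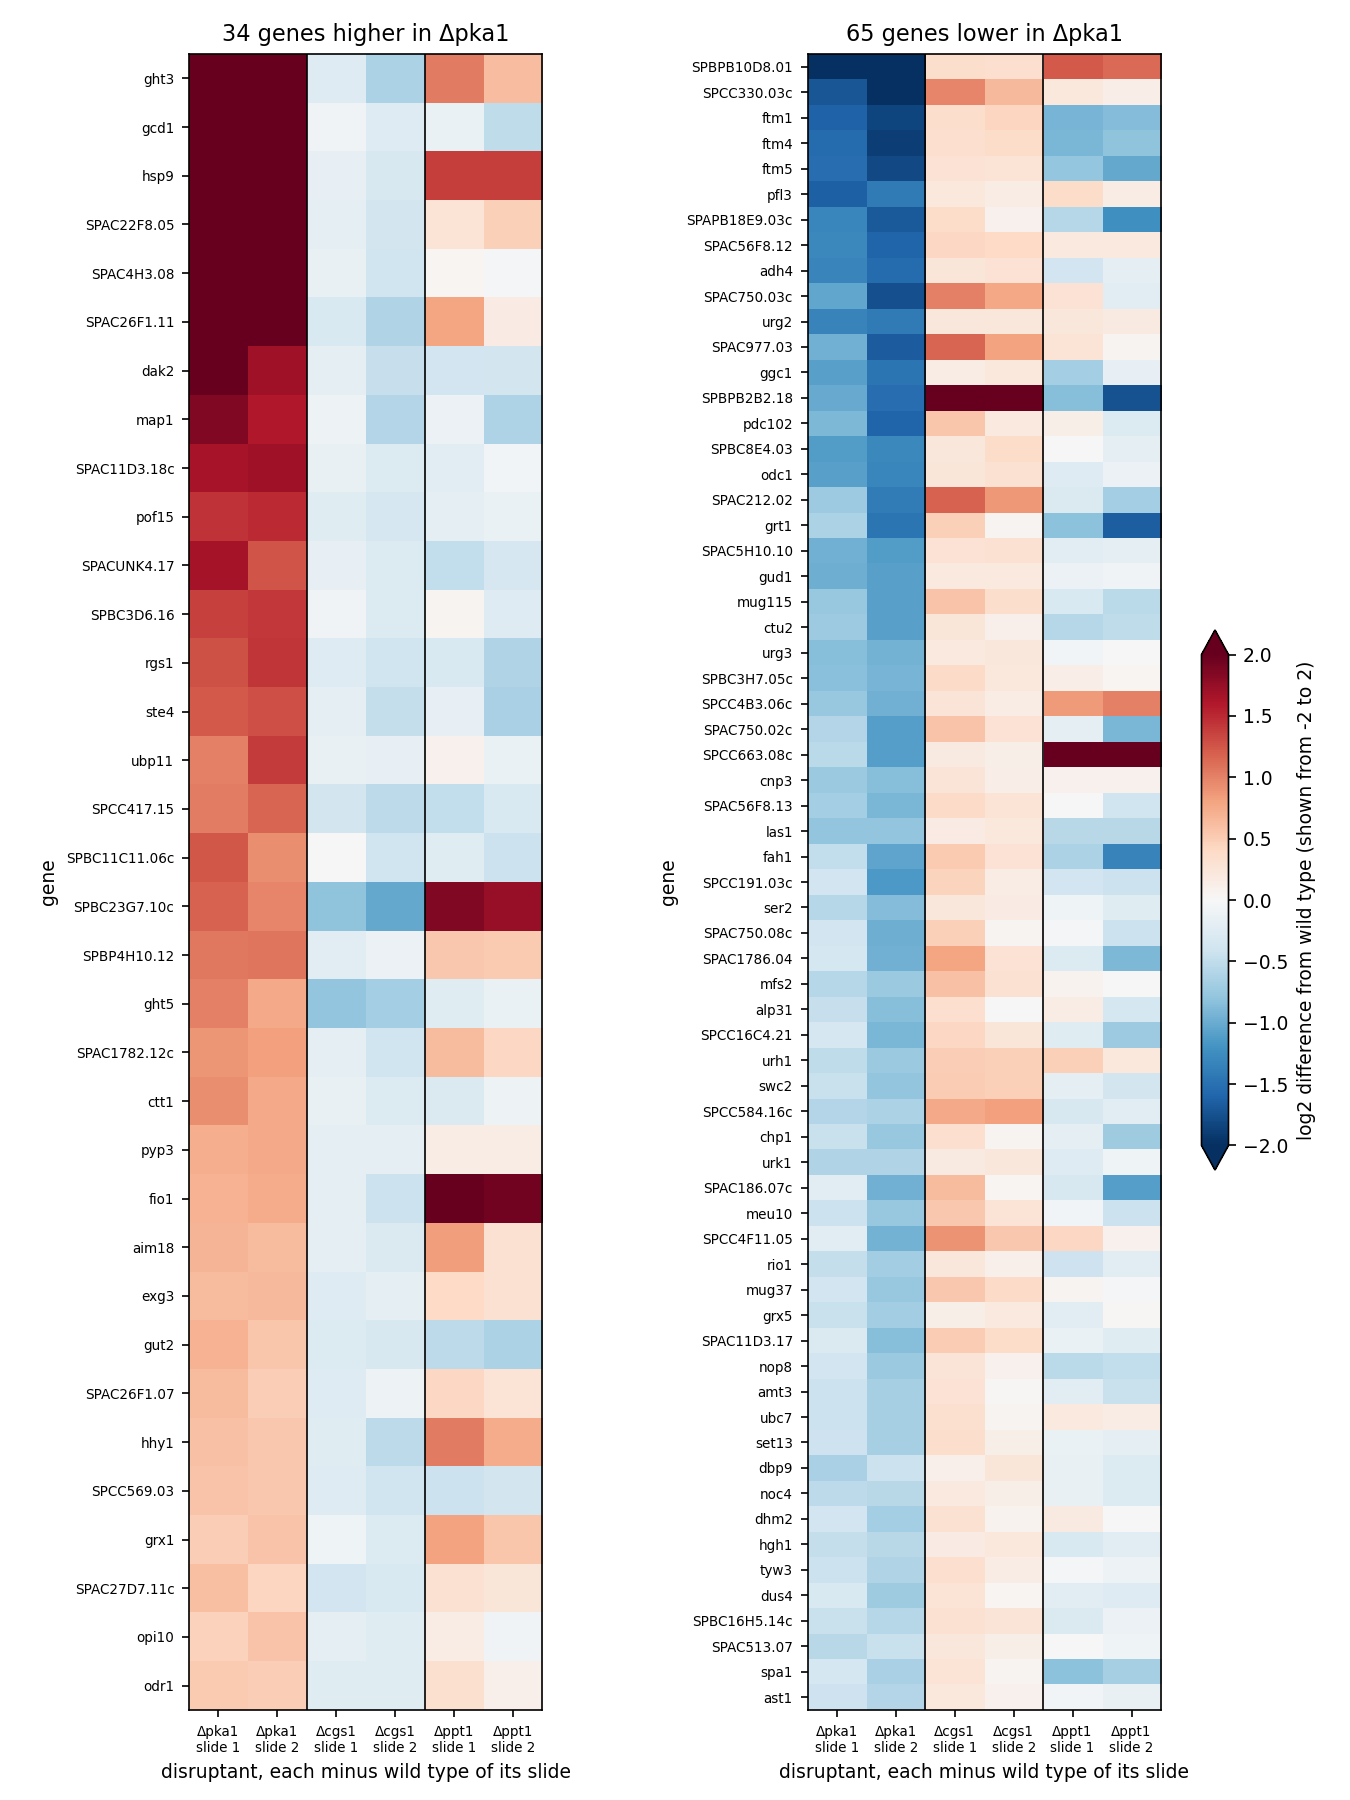
Log2 difference from the wild type array of the same slide for the 34 higher genes (left) and the 65 lower genes (right), in rows ordered by their mean difference on the arrays labelled Δpka1, from the largest in size at the top. Columns are the disruptants by slide, red is higher and blue lower than wild type, and the colours end at -2 and 2. The columns of Δcgs1 are mostly paler than and opposite to those of the arrays labelled Δpka1, and those of Δppt1 hold both colours in both panels.

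Some of the lower genes lie beside each other on the chromosomes. In the RefSeq gene order, restricted to measured genes, 98 of the 99 genes were found and 10 pairs of neighbours were both graded. In 7 pairs both were lower genes and in 0 both were higher genes, and 15 lower and 3 higher genes stood in such pairs. The runs of lower genes were ftm1 with SPAC977.03, SPAC56F8.12 with mug115 and SPAC56F8.13, urg2 with urg3, pdc102 with SPAC750.02c and SPAC750.03c, and grt1 with fah1. The pairs SPAC11D3.17 with SPAC11D3.18c, aim18 with chp1, and hgh1 with SPAC26F1.11 held a gene of each direction. No gene next to pka1, cgs1, ppt1 or ura4 was graded. The lower genes outnumber the higher genes, and how many such pairs other sets of these sizes would give was not tested. Overlap of probes between neighbours was not tested.

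Levels in Δppt1, which took no part in the rule, lay on both sides of wild type in the higher genes, and more of the lower genes lay below wild type than above it. The wild type arrays that Δppt1 is set against are those of the rule, so these values are not fully independent of the choice. Over the 34 higher genes the median log2 difference between Δppt1 and wild type was 0.02, with quartiles of -0.33 and 0.51. Over the 65 lower genes it was -0.20, with quartiles of -0.45 and 0.01, beside -0.02 for all 4940 genes, with quartiles of -0.12 and 0.07. Of the higher genes, 16 were higher than wild type on both slides, 14 were lower on both and 4 differed in sign. Of the lower genes, 13 were higher on both slides, 44 were lower on both and 8 differed in sign. Over all genes 26.7% were higher and 38.2% were lower on both slides. Both Δppt1 arrays lay above both wild type arrays for 15 higher and 6 lower genes, beside 10.4% of all genes, and below them for 9 higher and 26 lower genes, beside 14.2% of all genes. Median wild type intensity was 13666 for the higher genes and 11889 for the lower genes, beside 23320 for all genes. The part of this unlike level in the quartiles and shares was not tested.

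Differences between Δppt1 and wild type were tested with limma over all 4940 genes, with a call at an adjusted p below 0.05. Of the 34 higher genes, 3 rose in Δppt1 and 0 fell. Of the 65 lower genes, 2 rose and 1 fell. Over all genes 0.688% rose and 0.324% fell. The slides pair the arrays, and with a slide block 9 of the higher genes rose and 2 fell, and 4 of the lower genes rose and 16 fell, beside 5.53% of all genes that rose and 7.35% that fell. The blocked fit thus called 31 of the 99 genes in place of 6, and all 6 were among the 31. Over all genes it called 12.9% in place of 1.01%.

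Among the higher genes, fio1 (SPAC1F7.08), which encodes the multicopper oxidase of iron uptake, rose most in Δppt1. It read 21467 and 25267 on the arrays labelled Δpka1, 11610.2 and 11214 in Δcgs1, 60921 and 57645 in Δppt1, with 13255 and 15062 in wild type. Both Δppt1 arrays lay above all other arrays of the gene, a 4.19-fold rise over wild type (log2 fold change 2.07, SE 0.12, adjusted p = 0.000571, and 0.000646 with a slide block). It was one of 6 of the 15 genes of the iron list that rose in Δppt1, with 0 that fell (11 rose and 1 fell with a slide block), beside 0.688% of all genes that rose, and 5.53% with the block. SPBC23G7.10c, whose intensities are given above, rose 3.47-fold (1.79, SE 0.17, adjusted p = 0.00671, and 0.000645 with the block). Its order of strains was Δppt1, the arrays labelled Δpka1, wild type and Δcgs1, with no overlap between neighbours in that order. The small heat shock protein gene hsp9 rose 2.6-fold (1.38, SE 0.18, adjusted p = 0.0232, and 0.00156 with the block), to a level between wild type and the arrays labelled Δpka1.

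Among the lower genes, 2 rose in Δppt1 against their direction on the arrays labelled Δpka1. SPCC663.08c, a predicted short-chain dehydrogenase gene, read 5213 and 5295 on the arrays labelled Δpka1, 8595 and 12440.0 in Δcgs1, 31041 and 49447 in Δppt1, with 7568 and 11408 in wild type. It rose 4.22-fold in Δppt1 (2.08, SE 0.30, adjusted p = 0.0334, and 0.00304 with the block), while it met the rule in Δcgs1 only narrowly and under none of the 3 other scalings. SPCC4B3.06c, a predicted FMN reductase gene, read 7115 and 6827 on the arrays labelled Δpka1, 14476 and 14776 in Δcgs1, 21748 and 26716 in Δppt1, with 12081 and 13353 in wild type. It rose 1.9-fold (0.92, SE 0.12, adjusted p = 0.0232, and 0.00569 with the block). The gene that fell was ftm5, 1.86-fold lower in Δppt1 (-0.89, SE 0.11, adjusted p = 0.0189, and 0.0061 with the block). Its likes ftm1 and ftm4 were lower by a similar amount, -0.90 and -0.86, and passed with a slide block only (adjusted p = 0.00497 and 0.0115, against 0.16 and 0.137 without it).

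With 2 arrays per strain, single arrays decided several of these calls. The call for fio1 held without each of the 4 Δppt1 and wild type arrays in turn (adjusted p of at most 0.0107). That for SPBC23G7.10c was lost without Δppt1 replicate 2 (0.0672) and held without each of the other 3. The call for hsp9 held only without wild type replicate 2 (0.0366), and the adjusted p was 0.0512 without Δppt1 replicate 1, 0.129 without Δppt1 replicate 2 and 0.0949 without wild type replicate 1. The call for SPCC4B3.06c held only without Δppt1 replicate 1 (0.0429), and the adjusted p was 0.129 without Δppt1 replicate 2, 0.106 without wild type replicate 1 and 0.0711 without wild type replicate 2. The calls for SPCC663.08c and ftm5 were lost without each of the 4, with adjusted p between 0.0526 and 0.156 for SPCC663.08c and between 0.0633 and 0.149 for ftm5. In all of these fits the direction stayed the same.

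**Figure D5:**
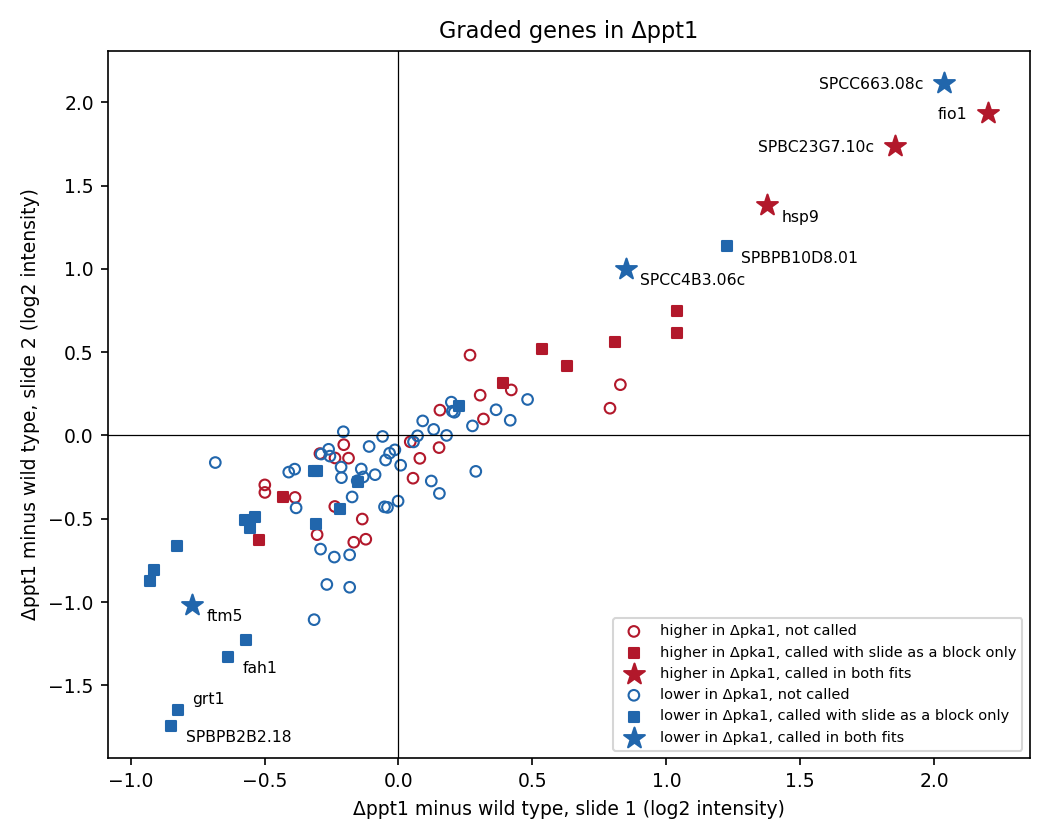
Log2 difference between Δppt1 and the wild type array of the same slide for each of the 99 genes, slide 1 on the x axis and slide 2 on the y axis. Stars are genes called in both fits, squares genes called with a slide block only, and open circles genes not called. The 5 genes that rose in both fits lie at the upper right, and SPBPB2B2.18 and grt1 are the lowest on slide 2.

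With slide as a block, 8 more of the higher genes passed. Those that rose were hhy1 (SPAC1F8.04c, 0.89), ght3 (0.83), grx1 (0.69), SPBP4H10.12 (0.53), SPAC1782.12c (0.52) and exg3 (0.35), with adjusted p between 0.00395 and 0.0253. Those that fell were gut2 (-0.57) and SPCC569.03 (-0.40), with adjusted p of 0.00369 and 0.0147. The hexose transporter gene ght3 and the glycerol-3-phosphate dehydrogenase gene gut2 thus moved in opposite directions in Δppt1 in that fit, while both were higher on the arrays labelled Δpka1. Without the block all 8 stayed above the threshold, with adjusted p between 0.0689 and 0.53.

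Of the lower genes, 17 more passed with a slide block. Only SPBPB10D8.01 (1.18, adjusted p = 0.00479) and urg2 (0.20, 0.0399) of these rose. The other 15 fell, by up to 1.30 on the log2 scale. Of these, SPBPB2B2.18 (-1.30, adjusted p = 0.0248) and grt1 (-1.23, 0.0274) had the largest differences, and both lay under the background limit in Δppt1, at least 1.59-fold and 1.79-fold below wild type. The neighbour of grt1, fah1 (-0.98, 0.0274, at least 1.1-fold by the background limit), SPAPB18E9.03c (-0.90, 0.0251), mug115 (-0.42, 0.0359) and the ammonium transporter gene amt3 (-0.33, 0.0487) also fell in that fit. So did spa1 (-0.75), a gene of polyamine control, hgh1 (-0.26), SPCC584.16c (-0.27) and, beside ftm1 and ftm4, the assembly and tRNA modification genes las1 (-0.56), nop8 (-0.51), noc4 (-0.22) and ctu2 (-0.54). Without the block SPBPB2B2.18 came nearest to the threshold (adjusted p = 0.0501).

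Some lists that gave graded genes were also read as a whole in Δppt1. In glucose-repressed carbon metabolism, 1 of 20 genes rose and 0 fell (4 rose and 2 fell with a slide block), with a median of -0.02. In mating and pheromone response, 0 of 24 genes rose and 1 fell (0 and 5 with the block), with a median of -0.28. Of the 24 stress response genes, 2 rose and 0 fell (6 and 0 with the block), with a median of 0.06. Of the 18 nitrogen starvation genes 0 rose and 1 fell (1 and 6 with the block), with a median of -0.02, and of the 17 flocculin genes 0 rose and 1 fell (0 and 4 with the block), with a median of -0.07. Of the 91 meiotically upregulated (mug) genes, 2 rose and 0 fell (4 and 6 with the block), with a median of -0.03. The 15 iron and haem uptake genes had a median of 0.82. These stand beside a median of -0.02 over all genes, of which 0.688% rose and 0.324% fell (5.53% and 7.35% with the block).

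Genes that were not called in Δppt1 in either fit include many of those with the largest differences on the arrays labelled Δpka1. Of the higher genes, gcd1 had -0.32 (adjusted p = 0.393, and 0.0853 with a slide block), SPAC4H3.08 0.00 (1 and 0.988), map1 -0.37 (0.539 and 0.13) and pof15 -0.16 (0.734 and 0.1). Of the lower genes, SPCC330.03c had 0.17 (1 and 0.61), pfl3 0.26 (0.93 and 0.168) and adh4 -0.29 (0.778 and 0.113). These differences were not resolved in either fit, which does not show that they are absent. Over all genes the median SE was 0.143 without the block and 0.0589 with it. With the block, other graded genes with differences of like size passed.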

How the data were processed

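Each deposited array table holds 1 linear intensity per gene, made from its probes per the file headers, and 4922 of 4940 genes had 14 probes. Further deposited columns, per the file headers the error of the summary and the number of probes, entered no test. The sources used here do not say how the authors summarised and normalized the values. Array medians were 21210 to 22148 on slide 1 and 24677 to 25548 on slide 2. The deposited series table was identical to the array values. Symbols and gene order came from a RefSeq table, which held 4913 genes. No positions are given, since no build is named in the files.

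Intensities were taken to log2. Δppt1 was compared with wild type by limma 3.58.1 in R 4.3.3, with 1 mean per strain over all 8 arrays (4 residual degrees of freedom), two-sided moderated tests and Benjamini-Hochberg adjustment over 4940 genes. The method was tested on simulated data. P-values measure the spread between separate cultures together with the slide difference, and the number of arrays limits the precision. The titles place arrays of a replicate number on 1 slide, and deviations of such arrays from their strain means correlated over genes, with Pearson's r between 0.351 and 0.690 for 6 strain pairs, so slide was also fitted as a block (3 residual degrees of freedom). "At least" folds set signals on both arrays of a strain at or below 2497 to that limit.

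The genes, the 15 lists, written from general knowledge, and the thresholds were chosen with earlier results of these data known. Values in every array are given for the 10 genes with the largest difference in the arrays labelled Δpka1 in each direction, for genes with a difference of at least 0.5 in Δcgs1 and for genes called in Δppt1. Members of lists and the genes nearest the thresholds are given with differences, and the others by name and range. Alternatives were other scalings, thresholds, filters, fits and left-out arrays.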

Additional observations from a re-analysis of the deposited data

How the results depend on the processing

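The number of graded genes, 99 as reported, was 88 with array medians matched, 92 after quantile normalization and 88 after cyclic loess, and stayed within 1.5 times the reported number when the lowest 10% of genes or genes near the highest value were dropped and when signals were raised to the background limit, a setting chosen after seeing the data. It was 40 with a size of at least 1 in the arrays labelled Δpka1, 38 with at least 0.3 in Δcgs1 and 61 with at least 0.15 in Δcgs1 on each slide (chosen after seeing the data). With 1 slide left out it was 86 to 117. Calls in Δppt1 against wild type, 6 of the graded genes and 50 of all genes, were 31 and 636 with slide as a replicate block, 26 and 338 with array medians matched, 41 and 698 after quantile normalization, 39 and 642 after cyclic loess, 20 and 168 with trend and robust moderation, and 3 and 24 when only Δppt1 and wild type arrays were fitted. With 1 array left out they were 1 to 4 and 13 to 30. The fit of Δppt1 and wild type arrays alone lost hsp9 (adjusted p = 0.0578), SPCC4B3.06c (0.0956) and ftm5 (0.0836). SPBC23G7.10c was not tested when the lowest 10% of genes were dropped. Leaving out calls with all signals at background, chosen after seeing the data, kept 6 calls. The median difference in Δppt1 of the lower genes, -0.20, was -0.15 after cyclic loess and between -0.22 and -0.15 on single slides, and that of the higher genes, 0.02, was between -0.05 and 0.12 on single slides, so its sign is not settled. No value with a call reversed. In the left-out fits the lone array of a strain is assumed to vary like the others. Motifs in promoters were not searched, since no promoter sequences were used here. Causes of these shifts were not tested. Signals under 2497 give no level, and those near 65239 compress differences.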
